A study of Mus musculus with 17 samples.

Results

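The Tex genes are the mouse genes whose symbol is Tex followed by a number, a name given to genes first noticed for transcripts in the testis. In the RNA-seq data of spermatogonial stem cells (SSCs) and of the pluripotent cells derived from them, 29 of 23891 gene symbols carried such a name. Every gene with a matching symbol was taken, whatever its level, and a gene with several RefSeq transcripts was represented by the transcript with the highest mean over the samples. The genes had 37 transcripts, and 5 of them (Tex11, Tex14, Tex21, Tex33 and Tex264) had more than 1. They lay on 13 chromosomes, with 5 on chromosome X (Tex11, Tex13, Tex13a, Tex16 and Tex28).

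The study asked how SSCs, which make only germ cells, turn into multipotent stem cells of adult spermatogonial origin (MASCs), whose colonies look like those of embryonic stem cells (ESCs). Expression was given in FPKM, a fragment count scaled by transcript length and by library size, in 17 samples. The 4 SSC lines came from adult testis and were grown on fibroblast feeders with GDNF (10 ng/ml), bFGF (10 ng/ml) and EGF (20 ng/ml), and were plated on gelatin for 2 h to take out feeders. Of these, SSC.1 and SSC.2 were Oct4-GFP, SSC.3 was C57Bl/6J and SSC.4 was 129mix. The 6 MASC lines arose from SSC cultures during long expansion and were picked as colonies that looked like ESCs. MASC.1 and MASC.2 were Oct4-GFP, MASC.3 and MASC.4 were 129mix, and MASC.5 and MASC.6 were Gt(ROSA26)Sor-lacZ. Of the 2 ESC lines, ESC.1 was Oct4-GFP and ESC.2 was 129mix. The 2 induced pluripotent (iPS) lines were 129mix and came from E13.5 embryonic fibroblasts with the tetO-4F2A cassette and H3.3B-HA, reprogrammed with doxycycline (2 µg/ml). MASCs, ESCs and iPS cells were all kept on feeders with LIF (1000 U/ml) and used within 20 passages. The 2 haematopoietic stem and progenitor cultures (HSCs) were C57Bl/6J lineage-negative marrow cells on E4ORF1-HUVECs, which are endothelial feeder cells, with sKitL (10 ng/ml) and new feeders every 7 days. The single mouse embryonic fibroblast (MEF) sample was 129mix, from E13.5 embryos with H3.3B-HA. Per the paper, the MASC and ESC lines were subcloned. The labels number the lines but do not say which lines share an animal or a parent culture. Each line was treated as independent, so the p-values measure the spread between these lines. If lines share an origin, that spread may be smaller than the spread between animals.

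The cell types were checked against marker genes. Of 10 genes of undifferentiated spermatogonia, 9 or 10 reached 1 FPKM in the SSC lines and 5 to 8 in the MASC lines. Their summed levels were 554 to 738 FPKM and 161 to 226 FPKM. Members of this list went both ways. Etv5 was at 81.1 to 128 FPKM in MASC lines and at 17.2, 123, 45.0 and 11.4 FPKM in the SSC lines. Sall4 was at 47.4 to 68.0 FPKM in MASC lines and 22.0 to 63.1 FPKM in SSC lines. Zbtb16 and Ret were below 1 FPKM in every MASC line and at 21.1 FPKM or more in every SSC line. All 8 pluripotency genes did so in every MASC, ESC and iPS line, and 3 to 5 in the SSC lines. These summed to 2831 to 4439 FPKM in MASC lines and 12.8 to 155 FPKM in SSC lines. Of 5 genes of differentiating spermatogonia, 4 or 5 reached 1 FPKM in SSC lines and 2 to 4 in MASC lines, with summed levels of 103 to 238 FPKM and 9.37 to 53.5 FPKM. Of 6 spermatocyte genes, 3 or 4 did so in SSC lines (sum 48.1 to 136 FPKM) and 4 in MASC lines (sum 14.0 to 25.5 FPKM). Both sums thus moved with the germ cell Tex genes below, and their part in those results was not tested. No sample had any of 7 spermatid genes at 1 FPKM or more. The summed level of 8 fibroblast genes ranged from 11.3 to 769 FPKM over the SSC lines and from 17.5 to 897 FPKM over the MASC lines. It was 7.97 FPKM in HSC.1 and 353 FPKM in HSC.2, against 6025 FPKM in the MEF sample. The MEF sample also had all 8 haematopoietic genes at 1 FPKM or more, with a sum of 175 FPKM against 1467 and 2149 FPKM in the HSC cultures. Coverage in reads per base at 1 FPKM was between 1.25 and 3.23. Values under 1 FPKM therefore rest on lower coverage than this, and the read number behind them is unknown.

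Tex names mark no single family. Several of the proteins work in meiosis or in the germ cell's defence against retrotransposons, and others serve the endoplasmic reticulum or ribosome assembly in cells of many kinds. Germline genes are commonly silenced in somatic and pluripotent cells, through promoter DNA methylation and through a Polycomb complex (PRC1.6) that is brought to DNA by E2F6 and MGA/MAX. E2F-type factors read the hexamer GCGGGA, and MAX dimers read the E-box CACGTG.

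Promoter sequence is shown for 7 genes whose level differed between MASC and SSC lines, since these are the genes the comparison turns on. Each run is the 250 bases before the RefSeq start on the gene's strand, 5′ to 3′, from RefSeq on GRCm38.p6. Capitals mark GCGGGA on either strand, which reads TCCCGC where it lies on the other one, or CACGTG.
Tex101, chr7:24672051-24672300, minus strand: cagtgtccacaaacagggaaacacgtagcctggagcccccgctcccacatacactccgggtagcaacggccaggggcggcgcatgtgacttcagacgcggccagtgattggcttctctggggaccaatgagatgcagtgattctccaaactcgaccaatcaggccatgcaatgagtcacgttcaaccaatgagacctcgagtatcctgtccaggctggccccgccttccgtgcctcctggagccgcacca
Tex12, chr9:50561269-50561518, minus strand: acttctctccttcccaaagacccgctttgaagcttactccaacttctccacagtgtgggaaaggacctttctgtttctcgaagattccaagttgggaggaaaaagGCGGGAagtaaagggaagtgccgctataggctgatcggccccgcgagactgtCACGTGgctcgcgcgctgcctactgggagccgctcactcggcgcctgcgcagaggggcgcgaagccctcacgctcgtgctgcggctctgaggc
Tex14, chr11:87404815-87405064, plus strand: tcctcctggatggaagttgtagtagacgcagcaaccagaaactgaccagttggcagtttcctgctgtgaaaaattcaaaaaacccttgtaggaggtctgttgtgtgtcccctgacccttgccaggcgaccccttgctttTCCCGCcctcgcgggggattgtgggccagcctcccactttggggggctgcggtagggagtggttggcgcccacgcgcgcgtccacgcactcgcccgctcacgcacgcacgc
Tex16, chrX:112093270-112093519, plus strand: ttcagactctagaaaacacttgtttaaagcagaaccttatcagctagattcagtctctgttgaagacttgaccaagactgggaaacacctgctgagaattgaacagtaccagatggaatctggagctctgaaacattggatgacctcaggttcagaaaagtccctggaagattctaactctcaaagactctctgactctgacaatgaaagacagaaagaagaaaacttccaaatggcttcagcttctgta
Tex30, chr1:44102442-44102691, minus strand: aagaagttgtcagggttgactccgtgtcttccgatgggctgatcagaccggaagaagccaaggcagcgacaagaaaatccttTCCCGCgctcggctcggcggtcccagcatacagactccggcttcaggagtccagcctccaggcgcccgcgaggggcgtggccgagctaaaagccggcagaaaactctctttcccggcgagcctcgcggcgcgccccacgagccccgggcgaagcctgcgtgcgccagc
Tex19.1, chr11:121145893-121146142, plus strand: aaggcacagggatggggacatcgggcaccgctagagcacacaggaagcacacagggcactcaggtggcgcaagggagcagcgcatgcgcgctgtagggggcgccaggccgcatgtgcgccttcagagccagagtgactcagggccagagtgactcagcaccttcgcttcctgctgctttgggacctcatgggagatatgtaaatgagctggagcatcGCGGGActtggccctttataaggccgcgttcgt
Tex21, chr12:76246747-76246996, minus strand: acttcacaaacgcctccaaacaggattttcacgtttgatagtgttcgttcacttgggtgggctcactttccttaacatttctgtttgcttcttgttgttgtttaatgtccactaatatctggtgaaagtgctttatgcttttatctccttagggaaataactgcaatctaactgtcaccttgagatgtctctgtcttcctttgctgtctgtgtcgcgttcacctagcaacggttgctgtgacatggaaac

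A window was at hand for 21 of the 29 genes. Among the 7 shown, Tex12, Tex14, Tex30 and Tex19.1 held 1 GCGGGA each on either strand, and Tex12 also held CACGTG. Over all 32851 windows of this length, 16.9% held GCGGGA on either strand and 6.02% held CACGTG. The CpG number ranged from 0 in Tex16 to 27 in Tex30, with 20 in Tex12, 17 in Tex14, 15 in Tex19.1, 14 in Tex101 and 6 in Tex21, against a median of 6 over all windows. Of the 5 shown windows with more than 10 CpG, 4 belong to genes lower in MASCs and 1 to a gene higher in MASCs. Over all windows, 37.8% had at least 10 CpG. Genes not called between MASCs and SSCs varied as well, with 34 in Tex2, 21 in Tex261, 14 in Tex9 and 13 in Tex10, but 1 in Tex29 and 0 in Tex28. Matches were not limited to the called genes. Among uncalled genes, the E2F-type hexamer had 1 match in Tex2 and 2 in Tex9. Tex264 had 1 in 1 window and 0 in the window at the start of its used transcript. The MAX E-box had 1 match in Tex36, which stayed below 1 FPKM everywhere. The other uncalled genes with a window held neither. A match is a run of letters and not a shown binding site.

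Levels fell into 3 kinds. Of the 29 genes, 6 (Tex2, Tex9, Tex10, Tex30, Tex261 and Tex264) were at 1 FPKM or more in all 17 samples, fibroblasts included. Another 12 reached 1 FPKM in some samples. The remaining 11 (Tex13a, Tex22, Tex24, Tex28, Tex29, Tex33, Tex35, Tex36, Tex37, Tex38 and Tex43) stayed below 1 FPKM everywhere, and their highest value was 0.793 FPKM, Tex38 in HSC.1. Per sample, 15 to 17 Tex genes reached 1 FPKM in SSC lines, 12 to 16 in MASC lines, 13 to 16 in ESC lines and 14 or 15 in iPS lines. In each HSC culture and in the MEF sample the number was 6.

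**Figure D1:**
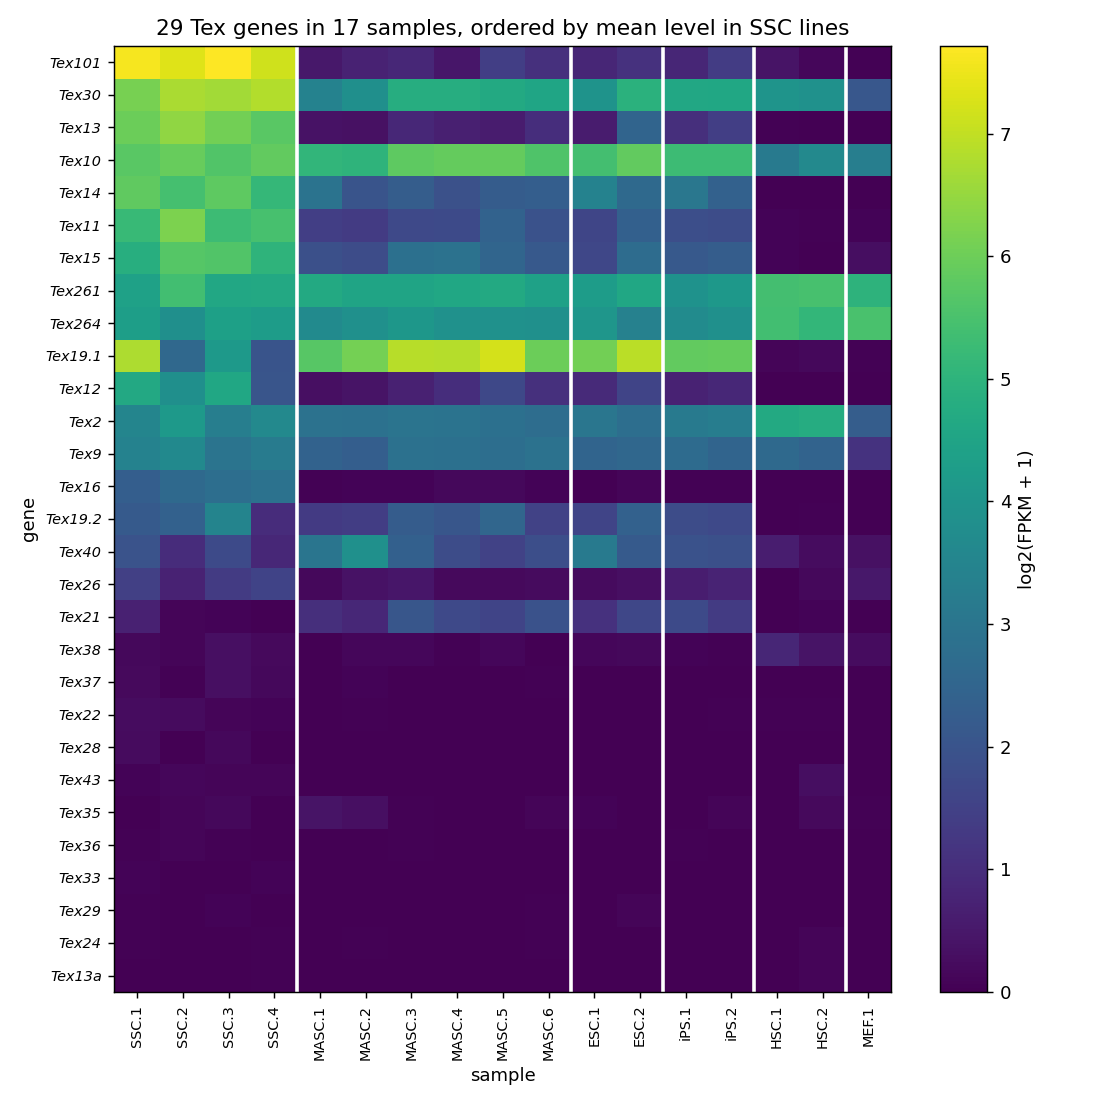
Heat map of the 29 Tex genes (rows, ordered by mean level in SSC lines) in the 17 samples (columns), coloured by log2(FPKM + 1) with white lines between cell types. The rows for Tex101 and Tex13 are bright in the 4 SSC columns and dark elsewhere, Tex19.1 is bright in MASC, ESC and iPS columns and in SSC.1, and the lowest 11 rows stay under 1 FPKM.

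MASC lines were compared with SSC lines to see which Tex genes differ between SSCs and the cells that arise from them. All SSC lines were grown with GDNF, bFGF and EGF, and all MASC, ESC and iPS lines with LIF. The gelatin step is described for SSC lines only. Cell type and culture conditions therefore cannot be told apart in these comparisons. A gene was called where limma, fitted over 32661 transcripts and the 12 SSC, MASC and ESC lines, gave an adjusted p under 0.05 and a difference in log2(FPKM + 1) of at least 1. In MASCs, 8 of the 29 genes were lower (Tex11, Tex12, Tex13, Tex14, Tex15, Tex16, Tex30 and Tex101) and 2 were higher (Tex19.1 and Tex21). Of all transcripts, 9.6% were lower and 6.04% were higher, and after quantile normalization 7.46% and 7.15%. The median difference of the Tex genes was -0.20, and that of all transcripts was -0.0048. These are bulk cultures, so fewer cells that use a gene and less RNA per cell cannot be told apart.

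Tex11, Tex12, Tex14 and Tex15 act in meiosis and in germ cell division. Tex11, at chrX:98033987-98254978 on mm9, encodes an X-linked protein related to yeast Zip4 that promotes synapsis and crossing over. Its level was 35.8, 72.2, 38.0 and 43.4 FPKM in the 4 SSC lines and had a minimum of 1.56, a median of 2.30 and a maximum of 4.34 FPKM in the MASC lines. Every SSC line lay above every MASC line. The mean was 18.9-fold lower in MASCs, with a log2 difference of -3.78 (SE 0.27, limma adjusted p = 7.61e-06). ESC lines were at 2.04 and 4.19 FPKM and iPS lines at 2.58 and 2.47 FPKM, within or near the MASC range. HSC cultures, at 0.0602 and 0.0253 FPKM, and the MEF sample, at 0.0526 FPKM, were lower still.

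Tex12, at chr9:50365253-50369373, is a component of the central element of the synaptonemal complex, where it pairs with Syce2. Its values were 24.2, 13.3, 23.2 and 3.13 FPKM in SSC lines and 0.253, 0.8286 and 2.22 FPKM (minimum, median and maximum) in MASC lines. SSC.4 stood apart at 3.13 FPKM but was still above the highest MASC line. The log2 difference was -2.92 (SE 0.51, limma adjusted p = 0.0018). Tex12 was listed at 0 in both HSC cultures and in the MEF sample. It was 0.892 and 1.99 FPKM in ESC lines and 0.669 and 0.812 FPKM in iPS lines.

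Tex14, at chr11:87218567-87369325, keeps the intercellular bridges between dividing germ cells open by blocking abscission through Cep55. SSC lines had 55.8, 42.1, 54.4 and 34.3 FPKM, whereas MASC lines ranged from 2.81 to 6.64 FPKM with a median of 3.84 FPKM. The groups did not overlap, and the log2 difference was -3.26 (SE 0.24, limma adjusted p = 8.27e-06), a ratio of means of 11.6. ESC lines, at 9.81 and 5.23 FPKM, and iPS lines, at 7.41 and 4.31 FPKM, kept a low but measurable level. In HSC cultures this transcript was at 3.28e-07 and 5.74e-08 FPKM, and nearly all of the Tex14 signal there, a mean of 0.0441 FPKM, was assigned to a second transcript.

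Tex15, at chr8:34681016-34696057, is required for meiotic recombination and for piRNA-directed silencing of retrotransposons. It was at 27.7, 50.6, 47.9 and 31.3 FPKM in SSC lines and between 2.45 and 6.52 FPKM (median 4.09) in MASC lines. All MASC lines were below all SSC lines, by 9.09-fold on the means and by a log2 difference of -2.94 (SE 0.32, limma adjusted p = 9.31e-05). The iPS lines (3.48 and 3.80 FPKM) and ESC.2 (5.58 FPKM) were in the MASC range and ESC.1 (2.14 FPKM) was below it, while HSC cultures had 0.0447 and 0.0188 FPKM and the MEF sample 0.23 FPKM.

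Tex13 and Tex16 are X-linked genes of germ cells. Tex13, at chrX:137342846-137347972, was at 61.6, 85.0, 66.7 and 53.0 FPKM in SSC lines and between 0.26 and 1.03 FPKM (median 0.566) in MASC lines. The difference was -5.41 (SE 0.33, limma adjusted p = 2.88e-06), or 113-fold on the means. Within the ESC lines the values were 0.49 and 4.58 FPKM, so ESC.2 was above every MASC line. Tex16, at chrX:109207129-109240935, was lower throughout, at 3.92, 5.19, 5.93 and 6.44 FPKM in SSC lines. No MASC line exceeded 0.119 FPKM (median 0.0619), and the difference was -2.55 (SE 0.10, limma adjusted p = 2.01e-07). Since 1 is added before the logarithm, the size of the change is understated for a gene at this level. The ratio of the FPKM means was 71.0.

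Tex101 encodes a GPI-anchored glycoprotein of the germ cell surface, of the Ly6/uPAR kind, that sperm need to migrate into the oviduct. It was the highest Tex gene in each SSC line and lies at chr7:25453031-25457069. SSC lines were at 195, 161, 209 and 140.4 FPKM. MASC lines were at 0.385 to 1.71 FPKM, with a median of 0.738 FPKM. The ratio of the means was 208 and the log2 difference -6.61 (SE 0.20, limma adjusted p = 4.19e-08), the largest of the 29 genes. All other samples were low as well, with 0.768 and 1.13 FPKM in ESC lines, 0.762 and 1.58 FPKM in iPS lines, 0.323 and 0.0904 FPKM in HSC cultures and 0.0235 FPKM in the MEF sample.

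Tex30 differed from the other 7 genes lower in MASCs, since it was at 3.28 FPKM or more in every sample. At chr1:44143462-44159233, it was at 69.0, 107, 99.3 and 114 FPKM in SSC lines and between 9.64 and 27.2 FPKM (median 23.4) in MASC lines. The groups did not overlap, and the means differed by 4.70-fold, with a log2 difference of -2.24 (SE 0.33, limma adjusted p = 0.00067). MASC.1 and MASC.2, the Oct4-GFP lines, were the lowest of the 6 MASC lines at 9.64 and 13.3 FPKM. HSC cultures were at 15.1 and 14.1 FPKM and the MEF sample at 3.28 FPKM.

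Across strains the 8 genes kept their direction. Among Oct4-GFP lines (2 MASC and 2 SSC), the differences ran from -6.86 for Tex101 to -2.39 for Tex16. Among 129mix lines (2 MASC and 1 SSC), they ran from -6.47 for Tex101 to -1.18 for Tex12. Every one of these values was negative, so the direction held in both backgrounds. In limma with strain as a block, Tex12 was -2.85 (adjusted p = 0.0154).

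**Figure D2:**
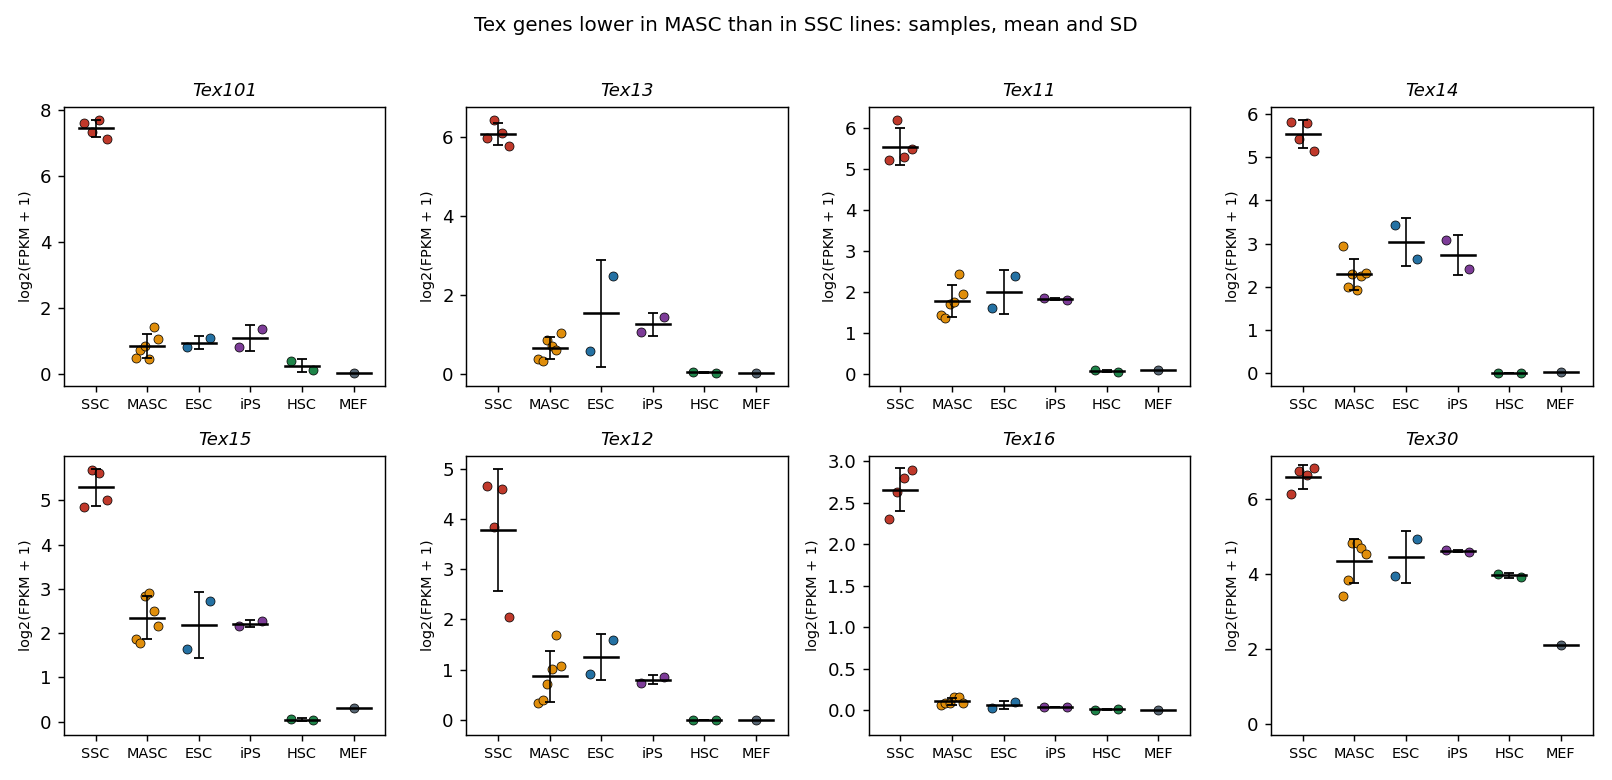
Level of the 8 Tex genes lower in MASC than in SSC lines, as log2(FPKM + 1) (vertical axis) by cell type (horizontal axis), with 1 point a sample, a bar for the mean and whiskers for the SD; MEF is 1 sample. SSC points sit above all others in each panel, for example 140.4 FPKM or more for Tex101 against at most 1.71 FPKM elsewhere, while Tex30 remains at 3.28 FPKM or more in every sample.

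Tex19.1 and Tex19.2 are mammal-specific paralogues that lie 27465 bases apart on chromosome 11. Tex19.1 restrains retrotransposons in germ cells, placenta and pluripotent cells and binds the ubiquitin ligase Ubr2. Reads that fit both copies were removed by the authors, so the level of each rests on the sequence in which they differ. Tex19.1 (chr11:121007457-121009627) was at 108, 5.10, 16.5 and 3.03 FPKM in SSC lines, and in MASC lines at 51.1 to 148 FPKM with a median of 92.1 FPKM. SSC.1 lay inside the MASC range and the other SSC lines lay below it. The limma difference was 2.59 (SE 0.83, adjusted p = 0.0394), and it was lost without any single line of SSC.2, SSC.3, SSC.4 or MASC.2 to MASC.6 (adjusted p = 0.0566 to 0.11). Without SSC.1 it was 3.55 (adjusted p = 0.00118). With strain as a block it was 2.63 (adjusted p = 0.163).

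SSC.1 also stood apart in 1 pluripotency gene. Pou5f1, which encodes Oct4, was at 94.5 FPKM in SSC.1 and at 2.10, 1.37 and 5.42 FPKM in SSC.2, SSC.3 and SSC.4. The other 7 pluripotency genes summed to 61.0 FPKM in SSC.1 and to 53.4, 39.8 and 7.33 FPKM in SSC.2, SSC.3 and SSC.4, against 1983 to 3590 FPKM in MASC lines. Nanog was close to 0 in SSC.1. Whether the Pou5f1 level bears on the Tex19.1 level of SSC.1 was not tested.

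In the remaining cell types, Tex19.1 was at 66.1 and 121 FPKM in ESC lines and 56.9 and 58.7 FPKM in iPS lines. It was nearly absent from HSC cultures (0.0795 and 0.125 FPKM) and from the MEF sample (0.0326 FPKM). Tex19.2 (chr11:120977529-120979991) was lower in level, at 3.51, 4.27, 10.1 and 0.974 FPKM in SSC lines and 1.48 to 4.85 FPKM (median 2.55) in MASC lines. These groups overlapped, and the difference of -0.41 had a 95% interval from -1.43 to 0.61. HSC cultures had Tex19.2 listed at 0 and at 0.0418 FPKM.

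Tex21 (chr12:77304972-77347733) was the second gene higher in MASCs. It was at 0.623, 0.0795, 0.0429 and 0.0133 FPKM in SSC lines and at 0.831 to 3.19 FPKM, median 2.13, in MASC lines. All MASC lines were above SSC.1, the highest SSC line, and the difference was 1.31 (SE 0.27, limma adjusted p = 0.00431). ESC lines were at 1.13 and 2.10 FPKM, iPS lines at 2.32 and 1.56 FPKM, HSC cultures at 0 and 0.0433 FPKM, and the MEF sample at 0. Of the 29 genes, Tex21 was the 1 gene whose MASC lines all lay above all SSC lines, and 13 genes had all MASC lines below all SSC lines. Over all transcripts, these shares were 9.91% and 15.4%.

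Tex40, at chr19:6996916-6999870, is known as Catsperz, a subunit of the sperm calcium channel CatSper. It was at 2.91, 0.976, 2.33 and 0.816 FPKM in SSC lines and at 1.86 to 13.53 FPKM (median 3.38) in MASC lines. The groups overlapped, and the difference of 1.01 did not pass the test (SE 0.48, limma adjusted p = 0.15). The highest values were those of Oct4-GFP lines, with 6.92 and 13.53 FPKM in MASC.1 and MASC.2 and 7.83 FPKM in ESC.1, against 3.53 FPKM in ESC.2. Tex26 (chr5:150242281-150273195) was at 1.77, 0.653, 1.51 and 1.91 FPKM in SSC lines and at most 0.394 FPKM in MASC lines (median 0.155). Its difference of -0.996 had an adjusted p of 0.000681 in limma but fell just short of a log2 difference of 1.

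**Figure D3:**
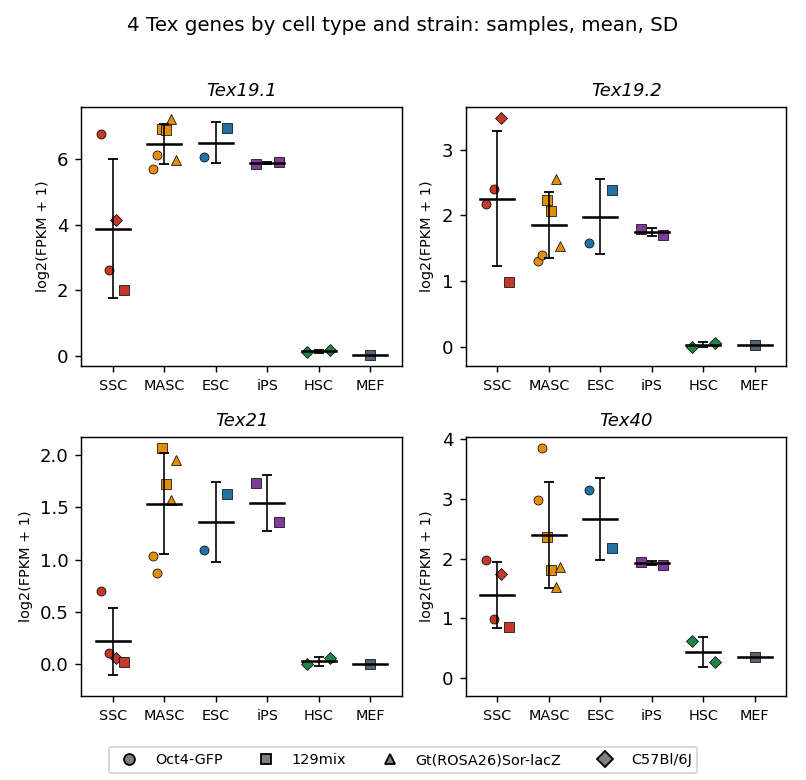
Tex19.1, Tex19.2, Tex21 and Tex40 as log2(FPKM + 1) (vertical axis) by cell type (horizontal axis), with the shape of each point giving the strain, a bar for the mean and whiskers for the SD. The circle of SSC.1 lies within the MASC points for Tex19.1 (108 FPKM), and the Oct4-GFP circles are the highest of the MASC points for Tex40 (6.92 and 13.53 FPKM).

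ESC lines were compared with SSC lines in the same fit, so this comparison shares the SSC samples with that of MASC. In ESCs, 8 Tex genes were lower (Tex11, Tex12, Tex13, Tex14, Tex15, Tex16, Tex30 and Tex101) and 1 was higher (Tex21), against 8.75% and 4.96% of all transcripts. The differences were -6.50 (SE 0.27) for Tex101, -4.53 (SE 0.44) for Tex13, -3.55 (SE 0.36) for Tex11 and -3.11 (SE 0.42) for Tex15. Tex21 passed narrowly, at 1.14 (SE 0.36, limma adjusted p = 0.0488), and lost the call without either ESC line or without SSC.2, SSC.3 or SSC.4. Tex12 (-2.53, limma adjusted p = 0.0257) lost its call without ESC.1, ESC.2, SSC.1 or SSC.3 (adjusted p = 0.0527 to 0.164), with strain as a block (0.0791), with the replicate number as a block (0.135) and after quantile normalization (0.0548). Tex30 lost its call without ESC.1 (adjusted p = 0.0847). The iPS lines, in a fit of all 17 samples, also had 8 Tex genes lower than SSC lines and 1 higher, which were the genes named for ESCs. The background there was 9.56% lower and 5.77% higher. Tex21 was not called without iPS.1 (adjusted p = 0.129).

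Between ESC and MASC lines, limma called none of the 29 Tex genes, and 1 gene (Tex14) had an unadjusted p under 0.05, as had 2.92% of all transcripts. Tex14 was at 9.81 and 5.23 FPKM in ESC lines and its difference was 0.75, with a 95% interval from 0.08 to 1.42. This test called 0.0153% of all transcripts higher and 0.00306% lower. The interval ran from -2.32 to 2.39 for Tex19.1, wide enough to hold differences of several fold either way, and from -1.06 to 1.83 for Tex12. Intervals were narrower for Tex16 (-0.32 to 0.23) and Tex101 (-0.45 to 0.68). Leaving out ESC.1 brought 1 gene, Tex13, past the threshold.

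HSC cultures, a somatic stem cell type, had fewer Tex genes at 1 FPKM or more than any SSC, MASC, ESC or iPS line. Compared with SSC lines, 12 Tex genes were lower in HSCs, namely the 8 genes lower in MASCs and also Tex10, Tex19.1, Tex19.2 and Tex26, and 2 (Tex2 and Tex264) were higher. Over all transcripts 14.2% were lower and 8.75% higher. Compared with MASC lines, 8 were lower (Tex10, Tex11, Tex14, Tex15, Tex19.1, Tex19.2, Tex21 and Tex40) and Tex2 and Tex264 were higher, against 11.2% and 9.64% of all transcripts. These comparisons share the HSC samples. Tex19.1 had the largest difference from MASCs, at -6.32 (SE 0.95, limma adjusted p = 0.000296). Tex11, Tex14 and Tex15, which MASCs still had at a few FPKM, were lower in HSCs by -1.70 (SE 0.31), -2.29 (SE 0.29) and -2.30 (SE 0.36). Without HSC.1 or HSC.2, some calls were lost: Tex19.1 against SSCs (adjusted p = 0.0665 and 0.0635), and against MASCs Tex19.2 (0.0963 and 0.094) and Tex40 (0.0617 and 0.126). The strain of the HSCs, C57Bl/6J, was shared by SSC.3 and by no MASC line. HSCs and MASCs could therefore not be compared within a strain, and a fit with strain as a block links them through the SSC lines. In that fit Tex19.1 differed by -6.62 between HSCs and MASCs (adjusted p = 0.0516), as much as without the block. Tex264 differed by 1.11 (adjusted p = 0.0636), and Tex11 (-1.12) and Tex21 (-1.10) were smaller, at adjusted p = 0.156 and 0.203. None of these 4 was called.

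The genes used in all samples besides Tex30 followed several patterns. Tex10, a member of the Pelp1 complex of ribosome assembly and a partner of Sox2 in ESCs, was at 52.5, 60.2, 47.8 and 57.2 FPKM in SSC lines and 31.4 to 58.2 FPKM (median 51.0) in MASC lines. It was at 41.2 and 57.1 FPKM in ESC lines, 37.8 and 37.8 FPKM in iPS lines, 7.99 and 11.4 FPKM in HSC cultures and 8.79 FPKM in the MEF sample. SSC and MASC lines overlapped (-0.25, 95% interval -0.71 to 0.22), while HSCs were below both (-2.14 against MASC, SE 0.25, limma adjusted p = 4.24e-05).

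Tex2, which has a lipid-transfer domain of endoplasmic reticulum contact sites, went the other way. It was at 10.4, 17.1, 8.81 and 11.5 FPKM in SSC lines, 5.72 to 6.76 FPKM (median 6.46) in MASC lines and 24.6 and 26.7 FPKM in HSC cultures. Against SSCs the difference was 1.08, and 0.96 without SSC.3. HSCs exceeded MASCs by 4.02-fold on the means (difference 1.85, SE 0.17, limma adjusted p = 5.67e-06). SSC lines were above MASC lines without overlap, but the difference of -0.77 was under the size required (limma adjusted p = 0.00285). The MEF sample was at 3.88 FPKM.

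Tex264 is a receptor for the autophagy of endoplasmic reticulum. It was at 18.9, 13.3, 19.7 and 18.1 FPKM in SSC lines, 11.9 to 16.0 FPKM (median 13.7) in MASC lines, 40.2 and 33.5 FPKM in HSC cultures and 43.9 FPKM in the MEF sample. HSCs exceeded MASCs by 1.35 (SE 0.18, limma adjusted p = 9.82e-05). Against SSCs the difference was 1.04, and it fell to 0.92 without SSC.2, to 0.91 without HSC.1, to 0.86 with strain as a block and to 0.77 when the transcripts of a gene were summed, all below the size required. The used transcript made up 44.8% of the Tex264 total in SSCs, 55.9% in MASCs and 55.2% in HSCs.

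Tex261, which works in export from the endoplasmic reticulum, was at 20.3, 40.9, 23.6 and 24.4 FPKM in SSC lines and 20.5 to 24.7 FPKM in MASC lines. HSC cultures were at 41.9 and 43.2 FPKM, a difference of 0.87 from MASCs (SE 0.20, limma adjusted p = 0.00453) that did not reach 1. Tex9 was at 9.74, 11.8, 6.90 and 8.16 FPKM in SSC lines and 3.95 to 6.46 FPKM (median 6.04) in MASC lines, a difference of -0.63 (SE 0.16, limma adjusted p = 0.0146). Its locus overlaps Mns1, and that of Tex10 overlaps Invs, so reads in the shared stretch may be assigned to either gene.

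**Figure D4:**
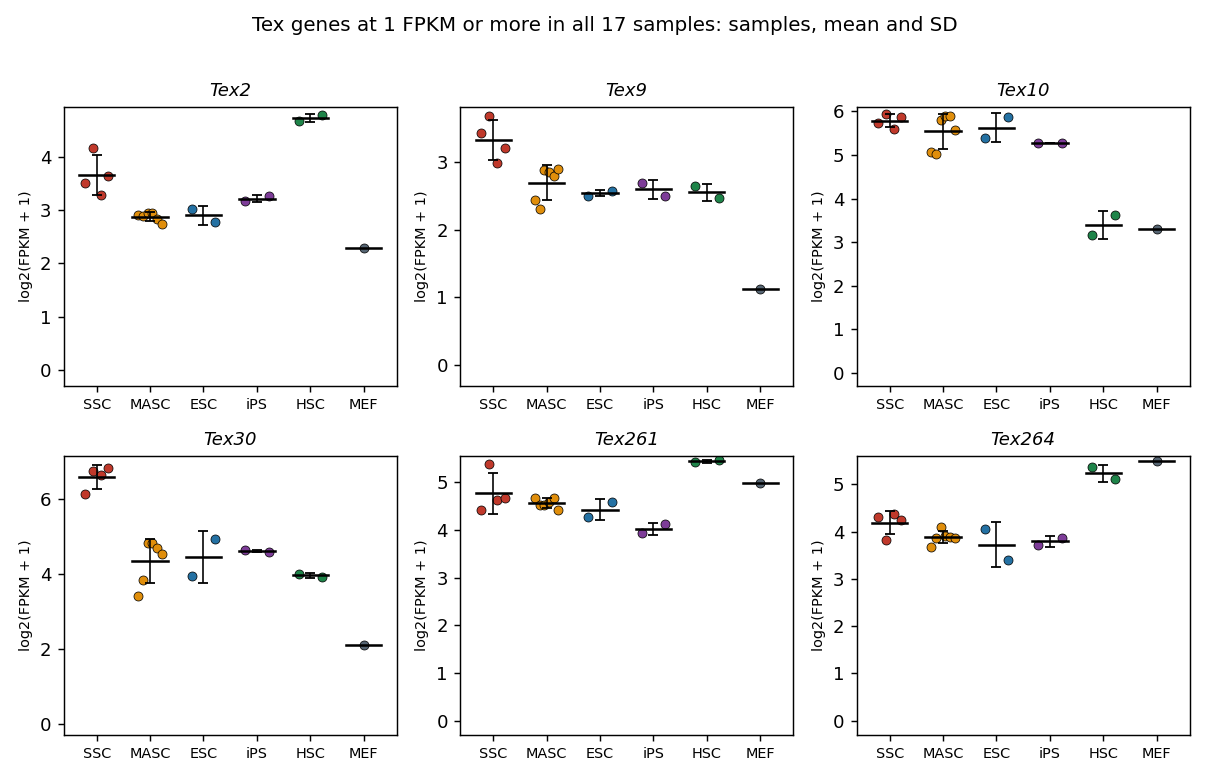
The 6 Tex genes at 1 FPKM or more in all samples, as log2(FPKM + 1) (vertical axis) by cell type (horizontal axis), with points for samples, a bar for the mean and whiskers for the SD. HSC points are the highest for Tex2 (24.6 and 26.7 FPKM) and low for Tex10 (7.99 and 11.4 FPKM), where the MEF sample (8.79 FPKM) lies beside them.

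Genes that act with the Tex proteins were read from lists chosen by known function, but with earlier results of these data known. The counts describe these lists and are not an independent test. Of 14 synapsis and crossover genes found, 7 were lower in MASCs than in SSCs and none was higher, with a median difference of -1.32. Over all transcripts, 9.6% were lower and 6.04% were higher. Syce2, the partner of Tex12 in the central element, was lower by a difference of -1.23 (SE 0.36, limma adjusted p = 0.0255), and Sycp1, which forms the transverse filaments, by -2.74 (SE 0.44, limma adjusted p = 0.00114). Sycp3 (-1.41, adjusted p = 0.163) and Hormad1 (0.27, adjusted p = 0.864), in limma, did not pass.

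Of 14 piRNA and retrotransposon genes, 12 were lower and 1 was higher, with a median of -3.14, against 9.6% and 6.04% of all transcripts. Tdrd1, a scaffold of the piRNA pathway, was lower by -5.08 (SE 0.17), and Piwil2, a germline Argonaute protein, by -3.67 (SE 0.25). Dnmt3l, which helps set DNA methylation in germ cells and is also expressed in ESCs, was the higher one, by 6.82 (SE 0.36). Ubr2, the ligase that binds Tex19.1, was lower by -1.27 (SE 0.17, limma adjusted p = 0.000334). Its direction was opposite to that of the mean difference of Tex19.1, for which SSC.1 lay inside the MASC range.

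The cytokinesis genes around Tex14 did not follow it. For the counts below, 9.6% of all transcripts were lower and 6.04% higher in MASCs than in SSCs. Between HSCs and MASCs, 11.2% were lower and 9.64% higher in HSCs. Of 7 such genes, Plk1 was higher by 1.47 (SE 0.14) in MASCs and none was lower, and Cep55, the protein Tex14 binds, differed by 0.19 (SE 0.53, limma adjusted p = 0.884). Of 4 genes listed as partners of Tex101 (Ly6k, Lypd4, Dpep3 and Ace), 1 (Ace) was lower in MASCs. Of the 5 Pelp1 complex genes besides Tex10, none was called between MASCs and SSCs, and all 5 were lower in HSCs than in MASCs, for example Pelp1 by -1.67 (SE 0.13). Of 6 genes of endoplasmic reticulum autophagy, Fam134b (-1.47, SE 0.16) and Ccpg1 (-1.84, SE 0.19) were lower in MASCs than in SSCs, and none was called between HSCs and MASCs.

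**Figure D5:**
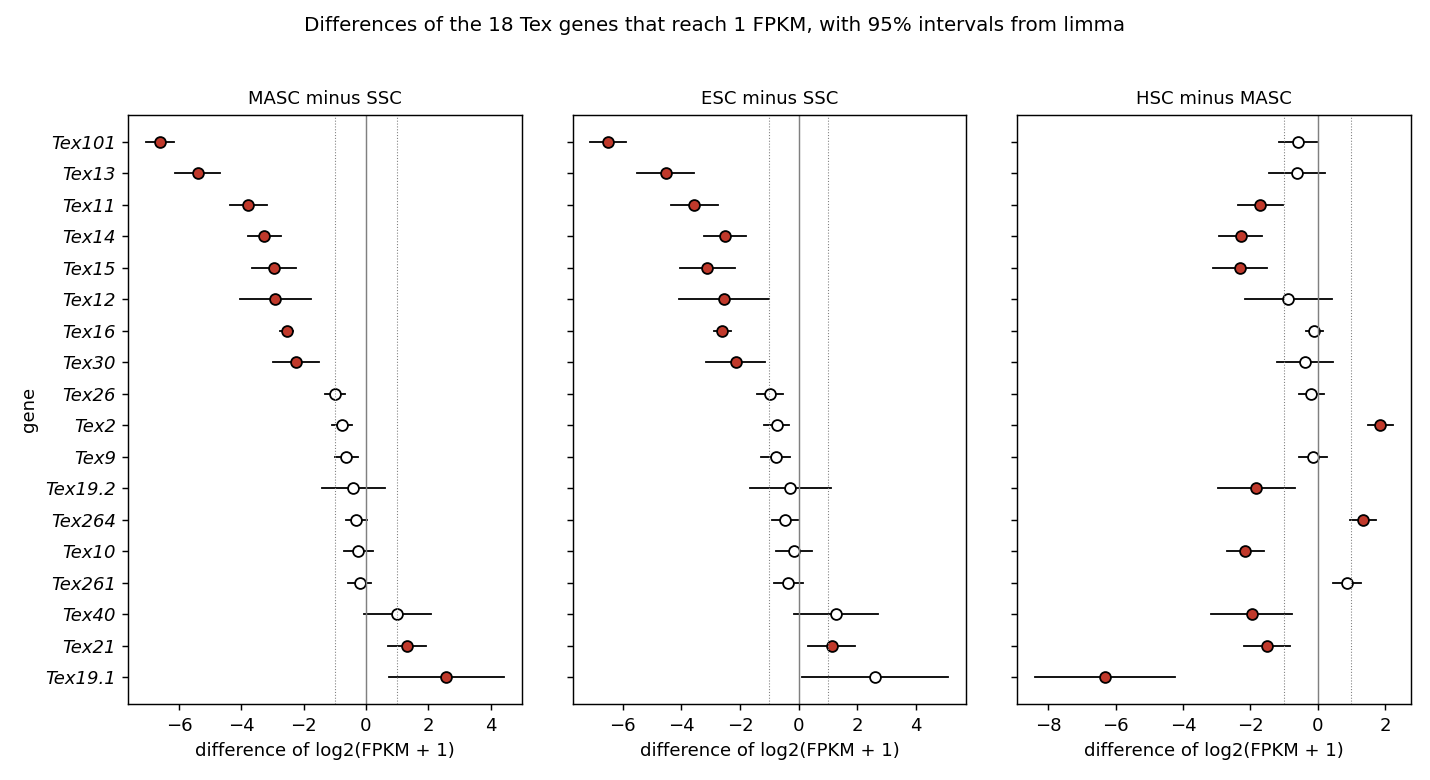
Differences of log2(FPKM + 1) (horizontal axis) for the 18 Tex genes that reach 1 FPKM (vertical axis), in 3 comparisons, with limma 95% intervals, filled where called and dotted lines at -1 and 1. Tex101 lies at -6.61 in MASC minus SSC, and Tex19.1 lies at 2.59 there and at -6.32 in HSC minus MASC.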

How the data were processed

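RNA-seq of 17 samples was used, with 1 table of RefSeq transcripts per sample. Per the labels and the methods, the authors aligned reads to mm9 with TopHat2 2.0.11, removed PCR duplicates and reads that map to several places, and deposited Cufflinks FPKM values with upper-quartile and GC normalization. The Cufflinks version is not given in the sources used here. The authors also deposited coverage, a signal in reads per base, and confidence bounds of the FPKM in each table. The files hold no counts, so the read number behind a value is unknown. The bounds were used for Tex21 only. ChIP-seq was not analysed here.

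Of 33262 rows per file, 601 are further loci of a transcript and were left out, which leaves 32661. Values were log2(FPKM + 1), with no filter. Starts in the files count from 0 and are printed from 1. Groups came from the labels. limma 3.58.1 in R 4.3.3 (lmFit, eBayes) was fitted over the 12 SSC, MASC and ESC lines, and over all 17 samples for iPS and HSC comparisons. P-values were two-sided and adjusted by Benjamini-Hochberg over all transcripts. The study's methods word their size threshold as folds on a log2 scale, with a raw p. A log2 difference of 2 and a raw p were each an alternative. Recovery of known changes by this fit was tested on simulated data. Tables were handled with Python 3.11.15 and pandas 2.3.3.

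A Tex gene got its value in each sample if it was called in any of 6 comparisons or had a mean of at least 5 FPKM in a cell type. The members and lists were chosen with earlier results of these data known. Alternatives were a pseudocount of 0.1, a filter of 1 FPKM in at least 2 samples, quantile normalization, robust eBayes with a trend, sums per symbol, other thresholds, a fit of all 17 samples, replicate and strain blocks, and each line left out.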

Additional observations from a re-analysis of the deposited data

Results flagged for a closer look

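Tex21 in SSC.1 was at 0.623 FPKM, apart from the other SSC lines at 0.0133 to 0.0795 FPKM, with a gap of 0.866 of the group's range on the log2 scale, above the limit of Dixon's test. It was the 1 value flagged as far from the others among 36 groups of 4 or 6 lines examined, where chance alone flags about 1 in 20. The deposited bounds of the SSC.1 value were 0.457 to 0.788 FPKM, above the upper bounds of the other SSC lines, which were at most 0.140 FPKM.

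Tex19.2 moved in opposite directions between Oct4-GFP and 129mix lines. Among Oct4-GFP lines, MASC minus SSC was -0.93, with MASC lines at 1.48 and 1.65 FPKM and SSC lines at 3.51 and 4.27 FPKM. Among 129mix lines it was 1.17, with MASC lines at 3.71 and 3.20 FPKM and the 1 SSC line at 0.974 FPKM. The difference between backgrounds was not tested.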

How the results depend on the processing

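Of 52 called Tex differences, 34 kept their call in all alternatives run, and 18 lost it in at least 1. None of the 911 values under the alternatives changed sign, and 63 no longer passed. Other thresholds, a raw p, the filter, robust eBayes and the fit of all 17 samples kept the main estimate, so its sign could not change there. A raw p or no minimum difference could not lose a call either. The cause of each loss was not tested, except that a higher threshold calls fewer genes by construction. With a log2 difference of at least 2, the number of higher genes was 1 in MASCs against SSCs and 0 in ESCs, iPS cells and HSCs against SSCs and in HSCs against MASCs, where 4 were lower. Over all transcripts these shares were 1.73%, 1.73%, 2.09%, 4.12% and 4.31% higher, and 3.81% lower. With no minimum, 14 were lower in MASCs, 13 in ESCs and 13 in iPS cells against SSCs, and the higher genes in HSCs were 4 against SSCs and 5 against MASCs. The shares of all transcripts were then 19.5%, 13.8% and 15.6% lower, and 12.7% and 14.8% higher. A raw p gave 2 higher in ESCs against SSCs (6.19% of all transcripts). Quantile normalization gave 1 higher in MASCs against SSCs (Tex19.1 lost, limma adjusted p = 0.0502), with 7.15% of all transcripts. Summed transcripts gave 1 higher in HSCs against SSCs, with 9.69% of all gene symbols. With strain as a block, 1 gene was higher in HSCs against SSCs, and 1 was higher and 5 were lower in HSCs against MASCs. The shares of all transcripts were then 7.07% higher against SSCs, and 6.23% higher and 6.62% lower against MASCs.

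The replicate numbers recur across cell types, but the same-numbered SSC and MASC lines had correlations of -0.225 to 0.185 (4 pairs), so they are not taken to pair the lines. The same-numbered SSC and ESC lines had 0.208 and 0.262, but these are only 2 pairs. With the replicate number as a block, 0 genes were higher in MASCs, ESCs or iPS cells against SSCs. For MASC minus SSC, Tex19.1 (limma adjusted p = 0.224) and Tex21 (limma adjusted p = 0.0955) no longer passed. Of all transcripts, 4.42% were then higher in MASCs, 2.94% in ESCs and 4.67% in iPS cells.

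Leaving out 1 line at a time gave 1 to 2 higher genes in MASCs, 0 to 2 in ESCs, 0 to 2 in iPS cells and 1 to 2 in HSCs against SSCs, and 0 to 1 higher genes in ESCs against MASCs. Shares of all transcripts are not given for these fits, so the counts are not read as results about the Tex genes. Where 1 ESC, iPS or HSC sample was left, it was assumed to vary like the other groups. Depth limits values under 1 FPKM, and the 11 Tex genes below it are not shown to be absent.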
